A study of Mus musculus with 6 samples.

Results

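The genes described here are 10 genes of the Notch pathway, 4 receptors (Notch1, Notch2, Notch3 and Notch4), 4 ligands (Jag1, Jag2, Dll1 and Dll4) and 2 target genes (Hes1 and Hey1), chosen by name and read from a table of 21966 mouse genes. Each of the 10 had a row, and 7 had a mean level of at least 1 FPKM, the fragments of a gene scaled to its length and to the depth of sequencing, over both conditions. Expression was measured by RNA-seq of poly(A) RNA in primary cells grown in culture from colon tumors of mice. Both conditions carry the Cre transgene CDX2P-NLS-Cre and 1 deleted Apc allele (APC Δ/+); the mice of the PID+ cells also had the ROSA26-PID allele, which those of the PID- cells lacked. PID is a peptide from the autoinhibitory domain of Pak1 that blocks the Group I p21-activated kinases; Cre, driven by the CDX2 promoter in intestinal epithelium, switches it on from the Rosa26 locus. The labels name 3 mice per condition, numbered 4, 7 and 26 for PID+ and 1, 2 and 3 for PID-, and give no age. The numbers of the PID- mice are not those by which the study identifies its PID- cells. The labels call the PID- samples normal, whereas the methods describe cells from tumors.

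The deposited table holds 1 value per gene and condition, made after the reads of the 3 samples were pooled, with a CuffDiff interval. For 17 of the 21959 genes used, none of them among the 10, a value lay outside its own interval. The table gives no value per mouse, so no spread between mice and no p-values are given here. Changes are given as log2 of the PID+ over the PID- level after 1 FPKM was added to each, which understates the change of genes with a low level, and a gene was called changed at 3-fold or more on this scale. The comparison asks how blocking Group I Pak activity relates to transcription in Apc-deleted tumor cells, here for the Notch genes.

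Notch receptors are membrane proteins that are cut when a ligand on a neighboring cell binds them. The cut releases the intracellular domain, which enters the nucleus, joins the DNA-binding protein Rbpj and its Maml co-activators, and turns on target genes such as those of the Hes and Hey repressors. In the intestinal epithelium the pathway maintains stem and progenitor cells and directs cells to the absorptive lineage by holding down Atoh1, the factor that starts the secretory lineage.

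None of the 10 genes was called at 3-fold in either direction. Of the 11480 genes with a mean of at least 1 FPKM, 229 or 1.99% were higher in PID+ and 377 or 3.28% were lower. With 1 FPKM added, a gene with a mean below 1 FPKM cannot reach 3-fold. Only 7 of the 10 genes could therefore be called, and the counts over all 21959 genes used are the same by construction. The deposited intervals of the conditions overlapped for each of the 10, as they did for most genes: 0.348% of the 11480 had intervals that lay apart with PID+ higher and 1.03% with PID+ lower. Hes1, Jag1 and Jag2 had the highest levels in both conditions, and Dll1, Dll4 and Hey1 were under 1 FPKM in both. The 10 genes had a median log2 change of -0.12, beside -0.01 over the 11480 genes; 4 of the 10 had a change above 0 and 6 below, beside 5670 and 5810 of the 11480, a split that shifted with equal Gapdh levels, where Notch2 and Jag1 were lower in PID+, and for Notch2 also with the chromosome median subtracted. The 7 with a mean of at least 1 FPKM had a median of -0.18, with 3 above 0 and 4 below; the other 3, whose intervals began at 0, add 1 above and 2 below.

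**Figure D1:**
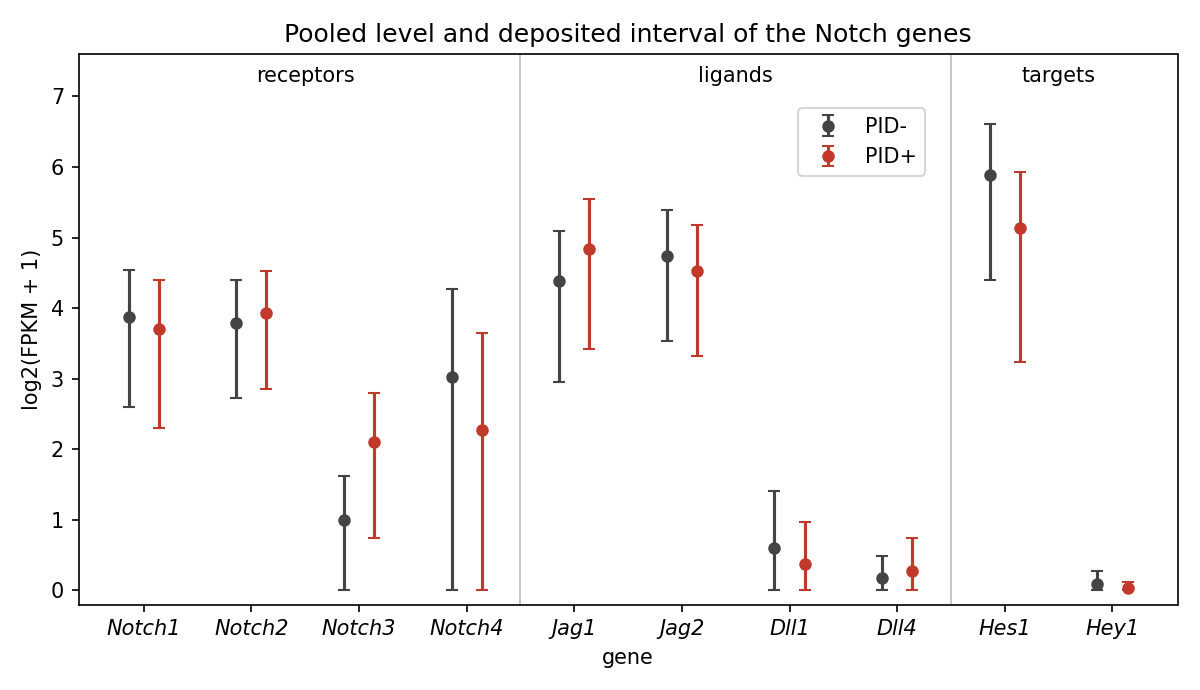
Level of each gene as log2(FPKM + 1) in PID- (gray) and PID+ (red), 1 pooled value per condition; bars are the bounds of the deposited CuffDiff interval and do not show the spread between mice. The bars of the conditions overlap for each of the 10 genes, and Dll1, Dll4 and Hey1 lie near 0.

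Among the receptors, Notch1 and Notch2 made up most of the receptor level. Notch1, the receptor most studied in the intestinal stem cell compartment, was at 12.0 FPKM in PID+ (interval 3.95 to 20.0) and 13.7 FPKM in PID- (5.06 to 22.3), a log2 change of -0.18. Notch2, which acts with Notch1 in crypt progenitors, was at 14.2 FPKM in PID+ (6.24 to 22.1) and 12.8 FPKM in PID- (5.59 to 20.0), a log2 change of 0.14 that was -0.44 with equal Gapdh levels and -0.12 with the chromosome median subtracted. Each interval of these receptors held the value of the other condition.

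Notch3, a receptor best known from vascular smooth muscle and pericytes, had the highest change among the 10 genes. It was at 3.30 FPKM in PID+ (0.674 to 5.93) and 0.998 FPKM in PID- (0 to 2.07), so the FPKM ratio was 3.31 while the log2 change with 1 FPKM added was 1.11. The intervals overlapped between 0.674 and 2.07 FPKM. Of the 11480 genes, 4.99% had a change at least as high. At a threshold of 2-fold Notch3 was the only one of the 10 genes called, where 6% of the 11480 genes were higher and 6.86% lower, and with equal Gapdh levels, which moved the median of all genes by -0.56, its log2 change was 0.652, 1.22 above that median, and the call was lost; with 0.1 in place of 1 FPKM added, it passed 3-fold with a log2 change of 1.63, where 3.27% of genes were higher and 4.56% lower.

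Notch4, a receptor found mainly in endothelial cells, was at 3.85 FPKM in PID+ (0 to 11.6) and 7.10 FPKM in PID- (0 to 18.2), a log2 change of -0.74 that was -1.21 with equal Gapdh levels. Its intervals reached 0 in both conditions and were the widest of the 4 receptors relative to the level, with a half-width of 201% of the value in PID+ and 157% in PID-. The receptor levels added up to 33.3 FPKM in PID+ and 34.6 FPKM in PID-. Notch1 and Notch2 held 36.0% and 42.5% of this sum in PID+, and 39.6% and 37.0% in PID-. Notch3 held 9.91% in PID+ and 2.89% in PID-, and Notch4 11.6% and 20.5%.

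The Jagged ligands were far more abundant than the Delta-like ligands. Jag1, which is a Wnt target in colorectal tumors as well as a ligand, was at 27.6 FPKM in PID+ (9.71 to 45.5) and 20.0 FPKM in PID- (6.73 to 33.2), a log2 change of 0.45 that was -0.15 with equal Gapdh levels. Jag2, a ligand of the same class, was at 22.04 FPKM in PID+ (9.02 to 35.1) and 25.7 FPKM in PID- (10.6 to 40.8), a log2 change of -0.21. In the order of levels Jag1 stood above Jag2 in PID+ and below it in PID-, but their intervals overlapped in both.

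Dll1 and Dll4 are the Delta-like ligands that intestinal secretory cells present to their neighbors. Dll1 was at 0.296 FPKM in PID+ (0 to 0.956) and 0.512 FPKM in PID- (0 to 1.65). Dll4 was at 0.205 FPKM in PID+ (0 to 0.672) and 0.125 FPKM in PID- (0 to 0.407). All 4 of these intervals began at 0. Jag1 and Jag2 together held 55.1% and 43.9% of the summed ligand level of 50.1 FPKM in PID+, and 43.1% and 55.5% of the 46.3 FPKM in PID-.

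Of the targets, Hes1 was the most abundant of the 10 genes and Hey1 the least. Hes1, the repressor through which Notch holds down Atoh1, was at 34.1 FPKM in PID+ (8.44 to 59.8) and 58.3 FPKM in PID- (20.1 to 96.6), a log2 change of -0.76, and 10.8% of the 11480 genes had a change at least as low. The gene lies on chromosome 16, whose genes with a mean of at least 5 FPKM had a median log2 change of -0.50, and the 34 such genes within 5 Mb of Hes1 had a median of -0.54. With the chromosome median subtracted the log2 change of Hes1 was -0.25, and with equal Gapdh levels it was -1.36. Hes1 and Notch4 were then past 2-fold, where 2.25% of the 11480 genes were higher and 20.5% lower. The part of the chromosome-wide shift in the level of Hes1 was not tested further.

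Hey1, a repressor of the same family that is prominent in endothelial cells, was at 0.0196 FPKM in PID+ (0 to 0.0895) and 0.0616 FPKM in PID- (0 to 0.207). Both intervals began at 0. In descending order the levels in PID+ were those of Hes1, Jag1, Jag2, Notch2, Notch1, Notch4, Notch3, Dll1, Dll4 and Hey1. In PID- Jag2 stood above Jag1 and Notch1 above Notch2, with the other ranks alike. The interval of each gene overlapped that of the next in the order in both conditions.

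Notch1 (ENSMUSG00000026923.12) lay at chr2:26457903-26516663 on the minus strand (GRCm38), Jag1 (ENSMUSG00000027276.7) lay at chr2:137081456-137116644 on the minus strand and Dll4 (ENSMUSG00000027314.6) lay at chr2:119325784-119335962 on the plus strand. Notch3 (ENSMUSG00000038146.7) lay at chr17:32120820-32166852 on the minus strand, Notch4 (ENSMUSG00000015468.11) lay at chr17:34564268-34588503 on the plus strand and Dll1 (ENSMUSG00000014773.10) lay at chr17:15367354-15376872 on the minus strand. Notch2 (ENSMUSG00000027878.11) lay at chr3:98013527-98150361 on the plus strand and Hey1 (ENSMUSG00000040289.5) lay at chr3:8663359-8667256 on the minus strand. Jag2 (ENSMUSG00000002799.5) lay at chr12:112907819-112929776 on the minus strand and Hes1 (ENSMUSG00000022528.7) lay at chr16:30064384-30067796 on the plus strand. The longest coding transcripts of Notch1, Notch2, Notch3 and Notch4 had 34, 34, 33 and 30 exons, those of Jag1 and Jag2 26 each and those of Dll1 and Dll4 11 each. Chromosome 17, with Notch3, Notch4 and Dll1, had a median log2 change of -0.06, so Notch3 and Notch4 lay on different sides of the median of the same chromosome. Noncoding genes or pseudogenes overlapped Notch1, Notch3, Notch4, Jag2, Dll1 and Dll4, genes of no settled class (TEC in Gencode) overlapped Notch2, and whether the counting used strand is not given in the sources used here.

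The wider pathway was described with 78 genes in 9 lists. Of these, only the 50 with a mean of at least 1 FPKM could be called at 3-fold. None was called higher at 3-fold and 1, Hes6, was called lower, beside 1.99% and 3.28% of the 11480 genes; the median log2 change was -0.04 over the 78 and -0.11 over the 50 with a mean of at least 1 FPKM. Of those 50, 16 had a change above 0 and 34 below, before any rescaling, beside 5670 and 5810 of the 11480. No pair of deposited intervals lay apart in the 78 genes. At 2-fold the calls were Dlk2, higher, and Hes6, Mib2, Tle2 and Tle3, lower, beside 6% and 6.86% of the 11480; the last 3 and Dlk2 are named because they passed this threshold, after their values were seen. The call of Dlk2 was lost with equal total FPKM (0.93) or equal Gapdh levels (0.50) and that of Tle3 with the chromosome median subtracted (-0.93), while Mib2, Tle2 and Tle3 passed 3-fold with equal Gapdh levels.

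**Figure D2:**
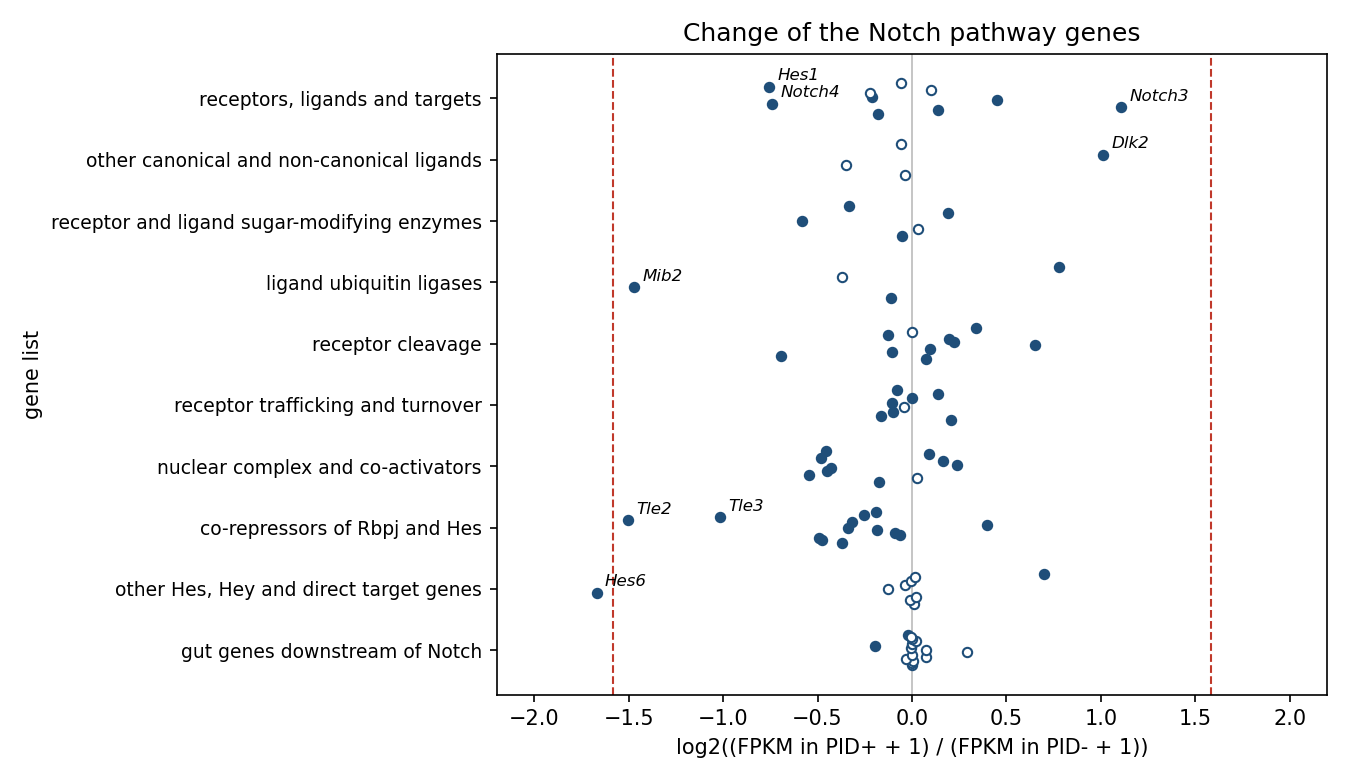
Log2 change between PID+ and PID- of each gene in the 10 Notch genes and 9 wider lists; filled points have a mean of at least 1 FPKM, open points less, and dashed lines mark 3-fold. Hes6 (-1.67) is the only point past a dashed line, and the points are pooled values without a spread between mice.

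Hes6, a Hes family member that does not repress in the way Hes1 does and that promotes differentiation in other tissues, was at 17.7 FPKM in PID+ (2.0 to 33.3) and 58.4 FPKM in PID- (22.8 to 93.9). This is a log2 change of -1.67, and the intervals overlapped between 22.8 and 33.3 FPKM. Nrarp, a target that feeds back on the Notch complex, was at 13.6 FPKM in PID+ and 8.0 FPKM in PID-, a log2 change of 0.70. The other genes of this list were below 1 FPKM: Hes5 was at 0.0134 FPKM in PID+ and 0 in PID-, Hey2 at 0.0185 and 0.0449 FPKM, and Heyl at 0 and 0.00487 FPKM.

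Among the other ligands, Dlk2, a non-canonical ligand, was at 5.74 FPKM in PID+ and 2.34 FPKM in PID-, a log2 change of 1.01 with intervals that began at 0. Dll3, a ligand that acts inside the cell, was at 0.0437 FPKM in PID+ and 0.0713 FPKM in PID-. Dlk1, a non-canonical ligand with the next highest level after Dlk2 by the mean of both conditions, was at 0.00784 and 0.286 FPKM. None of the 4 genes of this list, which also holds Dner, was called at 3-fold, but only Dlk2 had a mean high enough for a call. With 0.1 in place of 1 FPKM added, Dlk1 passed 3-fold, lower in PID+, with a log2 change of -1.84. Its intervals began at 0 in both conditions.

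Of the 5 enzymes that add sugars to receptors and ligands 4 had a mean of at least 1 FPKM, all but Mfng (0.0435 and 0.0194 FPKM), and of the 4 ubiquitin ligases of the ligands 3 did, all but Neurl1a (0.666 and 1.15 FPKM). Lfng, a Fringe enzyme that alters which ligands a receptor answers to, was at 12.4 FPKM in PID+ and 12.9 FPKM in PID-. Pofut1, which adds the fucose that Fringe extends, was at 13.9 and 12.1 FPKM. Mib1, the ubiquitin ligase needed for ligand activity, was at 35.4 FPKM in PID+ and 38.3 FPKM in PID-. Its relative Mib2 was at 5.70 FPKM in PID+ (0 to 13.1) and 17.6 FPKM in PID- (0.771 to 34.4), a log2 change of -1.47.

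For receptor cleavage 9 of the 10 genes had a mean of at least 1 FPKM. Adam10, the protease of the first cut after ligand binding, was at 55.0 FPKM in PID+ (22.4 to 87.7) and 89.5 FPKM in PID- (37.6 to 141.4), a log2 change of -0.69. Ncstn, a subunit of the gamma-secretase that makes the last cut, was at 62.8 FPKM in PID+ and 53.7 FPKM in PID-. The median log2 change of the 10 cleavage genes was 0.08, which was -0.01 with equal total FPKM and -0.46 with equal Gapdh levels. Of the genes of receptor trafficking and turnover, Itch, a ubiquitin ligase, was at 26.6 and 28.6 FPKM, and Numb, which binds receptors and limits their signal, at 21.4 and 18.4 FPKM.

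In the nucleus, Rbpj was at 28.4 FPKM in PID+ (12.5 to 44.2) and 32.1 FPKM in PID- (14.4 to 49.8), a log2 change of -0.17. Snw1, which joins the Rbpj complex, was at 43.7 and 37.0 FPKM. The median log2 change of the 10 genes of the nuclear complex was -0.30, which was -0.12 with the chromosome medians subtracted and -0.78 with equal Gapdh levels. All 13 co-repressor genes had a mean of at least 1 FPKM; 12 had a change below 0 and 1 above, with a median of -0.32, a split that was 13 below with equal Gapdh levels and 11 below with the chromosome medians subtracted. The median was then -0.87 and -0.15.

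Ncor1, a co-repressor of many factors, was at 65.8 FPKM in PID+ and 91.9 FPKM in PID-, a log2 change of -0.48. Hdac2, a histone deacetylase of such complexes, was at 69.0 and 78.6 FPKM. Tle2, a Groucho co-repressor that Hes proteins recruit, was at 2.37 FPKM in PID+ (0 to 5.87) and 8.59 FPKM in PID- (0 to 18.4), a log2 change of -1.51. Its relative Tle3 was at 16.5 and 34.5 FPKM, a log2 change of -1.02.

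The gut genes that Notch normally controls were mostly at low levels: 13 of the 15 had a mean below 1 FPKM, and 4 of these were listed at 0 in both conditions. Atoh1 and the stem cell marker Olfm4 were among those listed at 0. The value of Muc2, a goblet cell mucin, lay above its own interval in both conditions and is not given. Sox9, a factor of crypt cells, was at 8.80 FPKM in PID+ and 8.95 FPKM in PID-. Dclk1, a marker of tuft cells, was at 1.93 and 2.36 FPKM.

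The labelled cells were checked with markers. All 9 epithelial markers had a higher value in PID+, and 3 were called higher at 3-fold, beside 1.99% of the 11480 genes: Epcam (401 FPKM in PID+ and 124 in PID-), Cldn7 (274 and 79.4) and Elf3 (103 and 26.3). With equal Gapdh levels all 3 calls were lost, at log2 changes of 1.06, 1.15 and 1.32. With equal total FPKM that of Epcam was lost, at a log2 change of 1.576 in place of 1.679. Krt18 had the highest level in PID+, at 2843 FPKM and 1199 in PID-, and Krt19 the highest in PID-, at 2469 FPKM in PID+ and 2073 in PID-; with equal Gapdh levels the direction of Krt19 turned. The summed level of the 9 epithelial markers was 9186 FPKM in PID+ and 4983 FPKM in PID-. Vil1, also among the 9, was at only 0.175 and 0.0614 FPKM.

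None of the 8 fibroblast markers was higher in PID+, and 4 were called lower, beside 3.28% of the 11480 genes. Col1a1, the most abundant by the mean of both conditions, was at 2.32 FPKM in PID+ and 11.9 FPKM in PID-, Col1a2 at 0.0654 and 11.9 FPKM, Col3a1 at 0.339 and 6.35 FPKM, and Dcn at 0 and 2.39 FPKM. The summed level of the 8 fibroblast markers was 2.99 FPKM in PID+ and 33.2 FPKM in PID-, and Lum was listed at 0 in both. The study describes its PID- cells as fibroblast-like in shape and reports more Fibronectin and N-Cadherin protein in them than in PID+ cells. In such bulk samples fewer cells of a type and less RNA per cell cannot be told apart. The part of these differences in the Notch values was not tested.

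Endothelial and mural cells are where Notch3, Notch4, Dll4 and Hey1 are best known. The 10 endothelial markers summed to 5.13 FPKM in PID+ and 10.05 FPKM in PID-, and without Flt1 to 4.11 and 1.37 FPKM. Of the 10, 7 had a higher value in PID+, 1 a lower and 2 were listed at 0 in both. This split was 5 higher and 3 lower with equal total FPKM, and 4 and 4 with equal Gapdh levels. Most of the sum came from Kdr in PID+ and from Flt1, the most abundant by the mean of both conditions, in PID-. Flt1 was at 1.02 FPKM in PID+ and 8.67 FPKM in PID- and was called lower, with intervals apart. Kdr was at 3.33 FPKM in PID+ (0.561 to 6.10) and 1.01 FPKM in PID- (0 to 2.18). Its log2 change was 1.11, and it was not called at 3-fold. The defining markers Pecam1 (0.0960 and 0.0931 FPKM), Cdh5 (0.219 and 0.00279 FPKM), Erg and Cldn5 (0 in both) were near 0. The 9 mural cell markers summed to 12.3 FPKM in PID+ and 14.5 FPKM in PID-, and without Acta2 to 7.89 and 4.74 FPKM. Of these 9, 6 had a higher value in PID+ and 3 a lower, a split that was 4 and 5 with the chromosome medians subtracted. Acta2, the most abundant by the mean of both conditions, was at 4.39 and 9.76 FPKM. Mcam, the highest in PID+, was at 7.46 and 3.53 FPKM, with neither called. Rgs5 was at 0.00748 and 0.00271 FPKM and Pdgfrb at 0.0896 and 0.987 FPKM, with means too low for a call. The 9 immune markers summed to 51.0 and 45.7 FPKM, almost wholly from Cd14 (29.1 and 28.6 FPKM, the most abundant) and Cd68, with Ptprc at 0.0264 and 0.00811 FPKM.

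Promoter windows of 300 bases, 250 before and 50 after the start, were taken from RefSeq (GRCm38.p6) and matched 8 of the 10 genes, all but Hes1 and Hey1. The motifs searched were TGGGAA, the core of the Rbpj site, CACNAG, the N-box that Hes proteins bind, CACGTG, an E-box, and TATAAA, on both strands. In all 32851 windows TGGGAA was present in 25.6%, CACNAG in 42.5%, CACGTG in 7.15% and TATAAA in 13.6%. Counted by gene, with at least 1 window holding the motif, the shares of 27025 genes were, in the same order, 28.3%, 46.1%, 8.09% and 15.7%. Of the 8 genes, 5 had CACNAG and none the other 3; Notch1 had 3 matches. In the wider lists 62 genes were matched and 22 of them, 35.5%, had TGGGAA in at least 1 window (28.4% of their 81 windows), among them Lfng, Rbpj and Hes5.

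A match is a description of letters, not a site. The 250 bases before the start of Notch3, shown since Notch3 had the highest change of the 10, lay at chr17:32166891-32167140 (minus strand, outside annotated genes), with both N-box matches in capitals.
Notch3: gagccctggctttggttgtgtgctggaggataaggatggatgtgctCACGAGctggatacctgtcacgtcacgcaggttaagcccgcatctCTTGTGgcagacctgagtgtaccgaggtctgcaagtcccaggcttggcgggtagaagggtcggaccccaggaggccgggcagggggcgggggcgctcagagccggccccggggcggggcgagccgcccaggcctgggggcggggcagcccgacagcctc
The 250 bases before 1 of the 2 starts of Hes6, the gene called lower, lay at chr1:91413223-91413472 (minus strand, inside Hes6 but outside its exons), with an N-box and a TATAAA match in capitals.
Hes6: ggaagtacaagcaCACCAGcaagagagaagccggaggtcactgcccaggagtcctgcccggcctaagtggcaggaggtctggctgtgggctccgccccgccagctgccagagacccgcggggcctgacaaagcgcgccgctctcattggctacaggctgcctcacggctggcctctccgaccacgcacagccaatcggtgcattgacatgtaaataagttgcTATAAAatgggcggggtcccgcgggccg
A stretch of the Lfng window at chr5:140607194-140607250 (plus strand, outside annotated genes) shows TGGGAA, in capitals, in both orientations, the second overlapping a CACGTG by 2 bases.
Lfng: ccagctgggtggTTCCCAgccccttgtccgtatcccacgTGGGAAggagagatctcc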

How the data were processed

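RNA-seq reads of 6 samples, 3 PID+ and 3 PID-, were processed by the authors. They trimmed the reads with CutAdapt, aligned them with TopHat and Bowtie2 to GRCm38.p3 and protein coding genes, merged the 3 sets of a condition and deposited the FPKM of CuffDiff with its intervals, 1 value per gene and condition. The submitters' processing notes name the same tools without versions. By the labels, treated rows are PID+ and untreated rows PID-; no row of the transgene allows a check. The methods state paired reads and repeated sequencing runs, the labels 3 mice.

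Genes with a status other than OK (7) were left out, which left 21959. Symbols matched 21727. A pseudocount of 1 was used. Reads behind a value could not be recovered: a common step made 91.4% (PID+) and 90.7% (PID-) of low values whole within 0.1, but smaller steps made 91.6% and 92.2% whole, so the step is not settled and no read numbers are given. Depth is therefore unknown.

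Members and lists were chosen with earlier results of these data known. Genes named are all 10 members; of each wider list, those called and the 2 most abundant; Dll3, Hes5, Hey2, Heyl, Nrarp, Rbpj, Atoh1 and Olfm4; and, of each marker list, the most abundant and those called. Any other gene was named after its values were seen. Alternatives were a pseudocount of 0.1, equal total, upper quartile or Gapdh FPKM, median centering, chromosome medians, filters at a mean of 1 or 5 FPKM, 2-fold, and intervals apart. Positions came from Gencode M21 (GRCm38). Protein features had been planned and were not analysed here. Calculations were tested on simulated data with Python 3.11.15, numpy 2.4.6, pandas 2.3.3 and matplotlib 3.10.9.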

Additional observations from a re-analysis of the deposited data

How the results depend on the processing

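No paired analysis was possible because the table holds 1 pooled value per condition, and leaving out a replicate could not be run for the same reason. The table gives no spread between mice, so 2 bounds were set for the log2 changes after the data were seen, the error implied by the deposited intervals and 1.5-fold, and the smaller was applied: 7 of 66 values (the 10 genes and Hes6 under 6 settings) moved past it, beside 5 by the interval error alone and 3 by 1.5-fold alone. For the median of the 10 genes the bound was 0.1, also chosen after the data were seen.

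With equal Gapdh levels the median of all 11480 genes shifted by -0.56, since Gapdh was at 2570 FPKM in PID+ and 1666 in PID-. Under this setting the log2 changes were -0.44 for Notch2, -0.15 for Jag1, -0.80 for Jag2 and -1.36 for Hes1, and the median of the 10 genes was -0.39; relative to the shifted median of all genes they were 0.13, 0.42, -0.23, -0.79 and 0.18. For the 7 genes with a mean of at least 1 FPKM the median relative to all genes was -0.17 both with and without this scaling. The wider genes called lower then numbered 4 in place of 1, and calls over all genes went from 229 higher and 377 lower to 76 and 662. With a pseudocount of 0.1 the log2 change was 0.44 for Dll4 and -0.43 for Hey1. Then 1 of the 10 genes (Notch3) was called higher and 4 wider genes lower, beside 3.27% and 4.56% of the 11480. With the chromosome median subtracted Hey1 was at -0.31. At 2-fold 1 of the 10 genes and 1 wider gene were called higher and 4 wider genes lower, beside 6% and 6.86% of the 11480. No wider gene (0) had intervals apart. Apart from the shift in the median of all genes, the cause of these moves was not tested. A setting of 2-fold and equal Gapdh levels together was added after the data were seen. Under it 2 of the 10 genes (Hes1 and Notch4) and 10 wider genes were called lower, beside 20.5% of the 11480. Under each other setting 0 of the 10 were called lower. The intervals cover CuffDiff's own error model; among genes with a mean of at least 10 FPKM their median half-width was 75.1% of the value in PID+ and 73.9% in PID-, wider than the differences seen for most of the 10 genes.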

Other observations

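Outside the lists, 72 genes were looked up by hand, of which 66 had a row under the symbol searched, and the choice of those named followed from their values. Of the 50 with a mean of at least 1 FPKM, 3 were called higher in PID+ at 3-fold and 10 lower, beside 1.99% and 3.28% of the 11480 genes. The 3 higher were Ptprb, Ramp3 and Ccn1. The 10 lower were Chac1, Vim, Bmp2, Zeb1, Snai2, Lgr5, Cdx2, Gas1, Car1 and Ccn3. Of these, Chac1, Vim, Bmp2 and Zeb1 had intervals apart, and the intervals of the others overlapped. Ptprb, a receptor phosphatase known from endothelial cells, was at 14.7 FPKM in PID+ and 0.0244 in PID-. Ramp3, a partner of calcitonin-family receptors, was at 91.5 FPKM in PID+ and 7.69 in PID-. Both Ptprb and Ramp3 had intervals apart. Ccn1, a secreted matrix protein, was at 165 FPKM in PID+ and 51.2 in PID-, a log2 change of 1.67. Its call was lost with equal total FPKM, at 1.57, and with equal Gapdh levels, at 1.05. Chac1, which blocks the maturation of Notch receptors and also responds to stress of the endoplasmic reticulum, was at 6.60 FPKM in PID+ (0 to 14.1) and 39.3 FPKM in PID- (14.6 to 64.0), a log2 change of -2.41 with intervals apart. Vim, a filament gene of mesenchymal cells, was at 19.1 FPKM in PID+ and 997 FPKM in PID-. Lgr5, a marker of intestinal stem cells, was at 0.755 and 6.27 FPKM, and Cdx2, an intestinal identity factor, at 0.542 and 8.04 FPKM. Gxylt1, which adds xylose to Notch receptors, was at 27.5 and 15.0 FPKM, and was not called.

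The study also concerned microRNAs of the miR-200 family, so their seed matches were searched in the 3′ UTR of the longest coding transcript of each gene (Gencode M21), a search added after the data were seen. The mature sequences are from RefSeq (GRCm38.p6), with the seed, bases 2 to 8, in capitals.
miR-200b-3p (chr4:156055685-156055706, minus strand): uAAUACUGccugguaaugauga
miR-200a-3p (chr4:156054911-156054932, minus strand): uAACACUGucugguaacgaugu
The site of the first seed, shared with miR-200c-3p and miR-429-3p, was present in 15.6% of 11258 genes with a mean of at least 1 FPKM and in 1 of the 10 Notch genes. The site of the second, shared with miR-141-3p, was present in 20.96% and in 2 of the 10. The stretches follow, with the match in capitals, from Jag2 (chr12:112907981-112908009, minus strand), Notch1 (chr2:26458835-26458863, minus strand) and Notch2 (chr3:98150018-98150046, plus strand). These are matches of letters only; no microRNA was measured in the table.
Jag2: cgggacggcggCAGTATTgaagcttgtga
Notch1: tctgcaggctcCAGTGTTctgtagtagtg
Notch2: ccaaaggtgttCAGTGTTcacgtgtgatt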
